A study of Mus musculus with 6 samples.

Results

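A rare class of cells in liver lesions was defined by the chemokines Pf4 and Cxcl1 and the matrix glycoprotein Thbs1, and it held 179 of the 20663 CD45+ cells of 4 lesion libraries (0.866%). The members were chosen by measured values: a mean of the deposited scaled scores of Pf4, Cxcl1 and Thbs1 above 2, a mean of Clec4f and Vsig4 (Kupffer cell genes) below 1, and a mean of Trem2, Spp1, Ccl24 and Sdc4 at or below 1.5. A scaled score is the number of standard deviations of a cell from the mean of its site, and it is capped at 10. The levels of these 9 genes in the members are therefore a description of the choice and not a finding.

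The study asked how the immune cells around a metastasis differ when breast tumour cells carry less TIM3, an immune checkpoint receptor encoded by Havcr2. Balb/c mice received 4T07 mouse breast tumour cells by intracardiac injection, either control cells (Ctrl) or cells with a short hairpin RNA against TIM3 (Tim3-KD), so the hairpin acted in tumour cells that a sort on CD45 removes, the host cells of both groups were unmodified, and the knockdown could not be checked in these libraries. CD45+ cells were sorted from 5 by 5 mm pieces of liver and sequenced by droplet single-cell RNA sequencing at day 3 (tissue adjacent to tumour, and micrometastasis) and at day 12 (macrometastasis), with 1 library for each of the 6 groups and 2 mice pooled in each. The age of the mice is not given in the sources used here. The series holds 23008 cells in 6 libraries, and the 4 lesion libraries hold 4913 to 5502 cells each, with library medians of 6300.0 to 9359.5 unique molecular identifiers (UMIs, counted RNA molecules) per cell. With 1 library per group no test between groups was made: intervals below are 95% intervals that cover counting error only, and a difference between mice cannot be told apart from a difference between conditions.

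Pf4, also called CXCL4, is a CXC chemokine best known from the granules of platelets and is also made by macrophages. Cxcl1 is a chemokine that draws neutrophils through the receptor CXCR2. Thbs1 encodes thrombospondin 1, a secreted protein of matrix and platelets that binds CD36 and CD47 and activates latent TGF-beta, and Ctsl encodes cathepsin L, a lysosomal protease. In an inflamed or metastatic liver, monocytes enter from the blood and turn into macrophages, and in doing so they lose genes such as Ccr2 and Ly6c2 and gain genes such as those of complement C1q.

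In GRCm38 (GENCODE M21 annotation) Pf4 lies at chr5:90772435-90773383 and Cxcl1 at chr5:90891241-90893115, both on the plus strand of the same chemokine cluster, while Thbs1 lies at chr2:118111876-118127133 on the plus strand and Ctsl at chr13:64359337-64370890 on the minus strand. Of the 3 genes that chose the members, 2 had an entry in the promoter table. The stretches from 250 to 5 bases before the RefSeq start of Pf4 (chr5:90772185-90772430) and of Cxcl1 (chr5:90890995-90891240), plus strand, RefSeq GRCm38.p6 (whose Cxcl1 start lies 4 bases inside the GENCODE gene), are shown because these chemokine genes of the rule lie in 1 cluster. Which of them a member held was in part set by the rule and is not explained by these letters. Capitals mark matches to the NF-kappaB motif GGGANNNNCC on either strand:
Pf4: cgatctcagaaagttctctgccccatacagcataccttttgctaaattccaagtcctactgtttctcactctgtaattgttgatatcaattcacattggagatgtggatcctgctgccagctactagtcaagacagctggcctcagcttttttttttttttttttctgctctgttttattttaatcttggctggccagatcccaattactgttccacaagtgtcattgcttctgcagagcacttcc
Cxcl1: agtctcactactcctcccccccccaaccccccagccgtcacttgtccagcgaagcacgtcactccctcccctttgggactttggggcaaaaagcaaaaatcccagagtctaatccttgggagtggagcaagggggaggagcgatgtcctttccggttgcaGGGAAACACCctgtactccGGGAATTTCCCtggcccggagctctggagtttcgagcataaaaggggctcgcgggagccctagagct

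The Cxcl1 stretch held GGGAAACACC at 90 to 81 bases and GGGAATTTCC at 71 to 62 bases before the RefSeq start, the latter overlapping GGAATTTCCC, its match on the other strand, at 70 to 61 bases. The Pf4 stretch held no match. Of 32851 promoters of the same length 17.31% held the motif. Neither stretch matched the AP-1 motif TGANTCA, which 6.69% of promoters held. The TATA box motif, searched as TATAAA and held by 12.26%, was not matched either. A match is a description of the letters and not of binding.

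Members were about 1 in 100 cells of each lesion library. They were 39 of 5106 cells in micrometastasis Ctrl (0.764%, exact Clopper-Pearson interval 0.544 to 1.04%), 54 of 5142 in micrometastasis Tim3-KD (1.05%, 0.79 to 1.37%), 36 of 4913 in macrometastasis Ctrl (0.733%, 0.514 to 1.01%) and 50 of 5502 in macrometastasis Tim3-KD (0.909%, 0.675 to 1.20%). The Tim3-KD share was above the Ctrl share by 0.286 percentage points in micrometastasis (Newcombe interval -0.0842 to 0.664) and by 0.176 in macrometastasis (-0.179 to 0.528). Both intervals include no difference. They cover the counting of cells only, and with 1 library per group they cannot judge a difference between conditions. The sites were scaled apart, so the cut is not the same level of expression at both.

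The class was a range of a score and not a separate cloud of cells. The mean score of the 3 genes lay from 2 to 2.5 in 21, 20, 20 and 28 members of micrometastasis Ctrl, micrometastasis Tim3-KD, macrometastasis Ctrl and macrometastasis Tim3-KD, the order used below, and from 1.5 to 2 in 50, 39, 35 and 88 cells outside the class. The lowest member scores were 2.031, 2.004, 2.001 and 2.021, and the highest scores under the cut were 1.995, 1.998, 1.989 and 1.998. Above the cut, 34, 25, 58 and 25 cells were left out for Clec4f and Vsig4, and 17, 36, 18 and 17 for the Trem2 group of genes. Members had median totals of 8636, 8240.5, 10044 and 10158 UMIs, against 7525, 9375.5, 6277 and 7307.5 in the other cells of their libraries. A doublet score above 0.15 was found for 2, 6, 8 and 9 members (5.13, 11.1, 22.2 and 18.0%) against 6.59, 9.81, 7.12 and 11.4% of other cells. Libraries shared 0 to 11 cell barcodes in pairs, and no shared barcode was a member.

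Few members held all 3 genes of the rule. A mean above the cut can be met by 1 or 2 high genes, so these combinations are in part set by the rule and describe the choice. All 3 had a UMI in 26 of the 179 members, exactly 2 in 106 and only 1 in 47. Cxcl1 with Thbs1 was the most frequent pair (76 cells), ahead of Pf4 with Thbs1 (17) and Pf4 with Cxcl1 (13), and Thbs1 alone was found in 23 cells, Cxcl1 alone in 14 and Pf4 alone in 10. The highest scaled score belonged to Thbs1 in 75 members, to Cxcl1 in 70 and to Pf4 in 34. In micrometastasis Cxcl1 led most often (24 of 39 and 27 of 54 members), and in macrometastasis Thbs1 did (23 of 36 and 34 of 50).

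**Figure D1:**
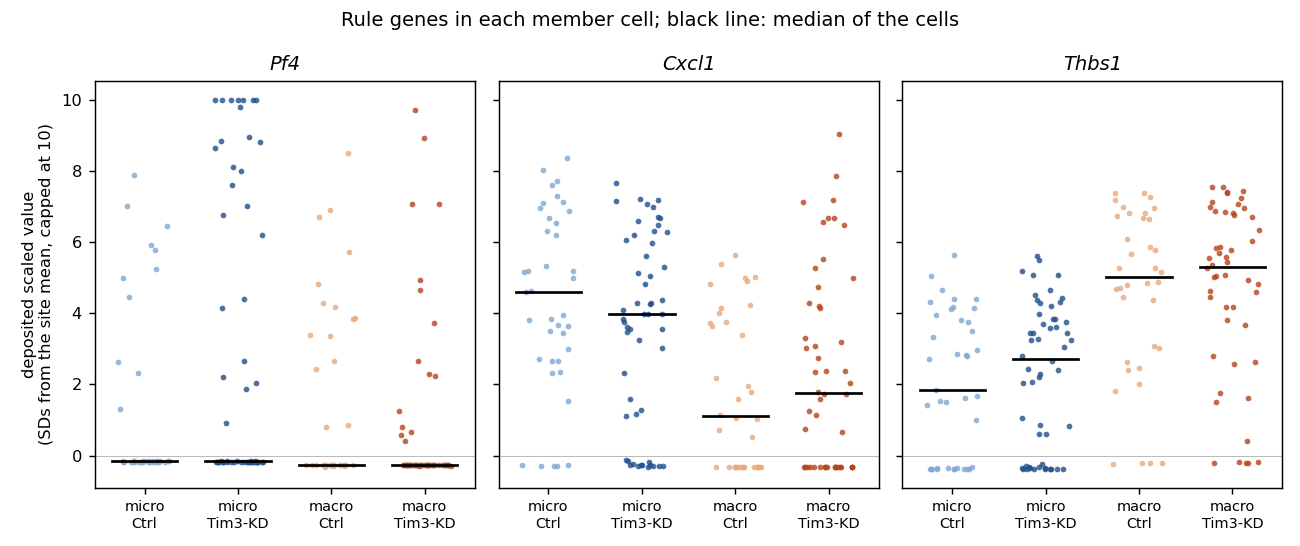
Deposited scaled score (standard deviations from the site mean, capped at 10) of Pf4, Cxcl1 and Thbs1 in every member cell of the 4 lesion libraries, 1 point a cell, with the median as a black line. The median of Pf4 lies at the level of cells without a UMI in each library (-0.17 in both micrometastasis and -0.27 in both macrometastasis libraries), while the median of Thbs1 is 1.84 and 2.72 in micrometastasis and 5.01 and 5.3 in macrometastasis.

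Pf4 was carried by a minority of members. It had a UMI in 28.2, 46.3, 41.7 and 30.0% of them, and its summed level was 99.7 CPM (UMIs of the gene per 1000000 UMIs of those cells; 68.7 to 140), 741 CPM (669 to 819), 296 CPM (247 to 352) and 424 CPM (373 to 480), against 7.92 to 45.9 CPM in the other cells. Its score reached the cap in 7 micrometastasis Tim3-KD members, so 741 CPM is a lower bound. Of the macrometastasis Tim3-KD UMIs of Pf4, 81.0% came from 3 cells. Micrometastasis Ctrl was the lowest library and micrometastasis Tim3-KD the highest.

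Cxcl1 was found in 87.2, 75.9, 61.1 and 64.0% of members, at 1118, 751, 461 and 991 CPM. Thbs1 was found in 66.7, 72.2, 88.9 and 90.0% of members, at 695, 656, 1633 and 1554 CPM. Since scores of the 3 genes, scaled apart for each site, chose the members, the level needed to enter the class differed by site, and these levels describe the choice. In T and B lymphocytes, which should lack them, Pf4, Cxcl1 and Thbs1 had a UMI in 0.216 to 1.73% of cells, at library medians of 4060.5 to 5045.5 UMIs. Ctsl, named as a marker of the class but no part of the rule, was found in 87.2, 88.9, 97.2 and 86.0% of members. Its level was 825, 1827, 2175 and 1419 CPM, against 207 to 548 CPM in other cells, and 7.01 to 10.1% of lymphocytes had a UMI. Cells with a mean score of Ccr2, Ly6c2, Vcan and F13a1 above 1 (monocyte-rule cells) had it in 91.6, 93.8, 84.4 and 91.6%. Members were thus below these cells except in macrometastasis Ctrl. With each cell thinned to the same number of UMIs, members had it in 48.7, 68.5, 80.6 and 66.0%. Thinned monocyte-rule cells had it in 42.1, 44.6, 46.7 and 44.4%.

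The label of myeloid cells was checked against marker genes. At least 2 genes of the macrophage and monocyte lists had a UMI in 166 of 179 members (84.6, 92.6, 97.2 and 96.0%), against 49.6 to 66.5% of other cells and 7.1 to 20.8% of lymphocytes. T cell genes were near 0 (3.02 to 16.3 CPM summed over 7 genes), and so were NK cell genes (0 to 38.6 CPM) and dendritic cell genes (4.66 to 12.1 CPM). B cell genes summed to 411 CPM in micrometastasis Ctrl, where 1 member met a B cell rule, and to 5.79 to 16.8 CPM elsewhere. Of 9 platelet and megakaryocyte genes the matrices held Clec1b, which liver sinusoidal endothelium also makes, so a check for platelets could not be made.

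Most members held monocyte genes or C1q genes, and few held both. By groups drawn after the values were seen, 108 of 179 members had a UMI of at least 2 of Ccr2, Ly6c2, Vcan and F13a1 (24, 28, 23 and 33), 50 had at least 2 of the C1q genes C1qa, C1qb and C1qc (4, 22, 10 and 14), 12 had both, 96 the monocyte genes only, 38 the C1q genes only and 33 neither. The share with C1q genes was 10.3% (2.87 to 24.2%) in micrometastasis Ctrl and 40.7% (27.6 to 55.0%) in micrometastasis Tim3-KD, 30.5 percentage points higher (12.5 to 45.2), and it was 27.8% and 28.0% in macrometastasis, a difference of 0.22 points (-19.1 to 18.4). The share with monocyte genes was 61.5, 51.9, 63.9 and 66.0%, and the Tim3-KD minus Ctrl difference was -9.69 points (-28.5 to 10.5) in micrometastasis and 2.11 (-17.3 to 22.1) in macrometastasis.

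**Figure D2:**
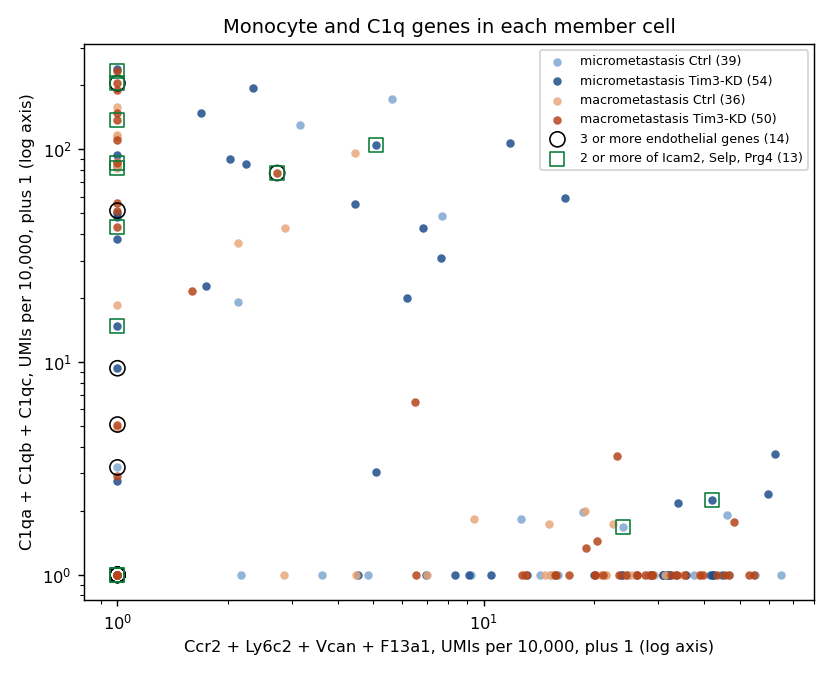
Summed Ccr2, Ly6c2, Vcan and F13a1 (x axis) and summed C1qa, C1qb and C1qc (y axis) in each of the 179 members, as UMIs per 10000 plus 1 on log axes, coloured by library; rings mark the 14 members with 3 or more endothelial genes and squares the 13 with 2 or more of Icam2, Selp and Prg4. Most cells lie along 1 of the axes, and 12 members held 2 or more genes of both sets.

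Genes of other cell types were present in parts of the class. At least 3 of 8 liver endothelial genes had a UMI in 6, 1, 3 and 4 members (15.4, 1.85, 8.33 and 8.0%), against 2.15, 1.47, 11.1 and 6.38% of other cells. The endothelial list summed to 1457, 48.2, 422 and 140 CPM in members and to 108.5, 38.7, 736 and 198 CPM in other cells. Members were thus far above other cells in micrometastasis Ctrl and below them on this sum in macrometastasis. At least 2 of Icam2, Selp and Prg4, genes used here to mark peritoneal macrophages, were found in 1, 5, 1 and 6 members. These were 2.56, 9.26, 2.78 and 12.0% of members, against 1.24, 2.20, 0.656 and 1.36% of other cells. Alb, the hepatocyte albumin gene, had a UMI in 3, 17, 15 and 24 members (7.69, 31.5, 41.7 and 48.0%) against 7.36, 11.7, 28.2 and 21.9% of other cells. The hepatocyte list summed to 348, 926, 1311 and 1389 CPM in members, most of it Trf (326, 808.5, 901 and 1052 CPM). It summed to 1167 to 1524 CPM in Kupffer-rule cells, 428 to 986 CPM in Trem2-rule cells and 132 to 291 CPM in monocyte-rule cells. Other cells held 129 to 388 CPM, so this sum was not particular to hepatocyte content. Neutrophil genes, of which the matrices held 3 of 6 listed, summed to 119 to 257 CPM in members and to 463 to 697 CPM in others. At least 2 of them were held by 28 members (15.6%). The share of other cells was not counted, so that number has no background to be read against. In none of the C1q, monocyte, endothelial and Icam2, Selp and Prg4 groups were 21 members. The full macrophage and monocyte lists and the neutrophil genes were not used for that count, so these 21 are not cells without myeloid genes. The part of members with genes of other cell types in the results below was measured only where values without them are given.

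The members were set beside like cells, all of them cut from expression. Monocyte genes (6 held in micrometastasis and 7 in macrometastasis) summed to 5582, 5173, 6389 and 8717 CPM in members, to 5381, 6984, 8870 and 8954 CPM in the 1901 monocyte-rule cells (a mean score of Ccr2, Ly6c2, Vcan and F13a1 above 1) and to 1394 to 2491 CPM in all other cells. The members were above the monocyte-rule cells in micrometastasis Ctrl and below them in the other libraries. Kupffer genes summed to 69.5, 496, 275 and 456 CPM, against 16160 to 21380 CPM in the 2362 cells with a mean of Clec4f and Vsig4 at or above 1, a gap largely fixed by the rule, which used these 2 genes of the list. Macrophage genes summed to 2128, 4760, 4162 and 5770 CPM in members, 300.3 to 882 CPM in monocyte-rule cells, and 2525, 6182, 4941 and 7011 CPM in the 545 cells that the Trem2 condition sets aside (Trem2-rule cells). On the macrophage list the members stood between both groups in each library. Of the chosen genes, the monocyte-rule cells had Pf4 in 0.82 to 2.28%, Cxcl1 in 3.59 to 10.5% and Thbs1 in 52.5 to 68.5% of cells.

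**Figure D3:**
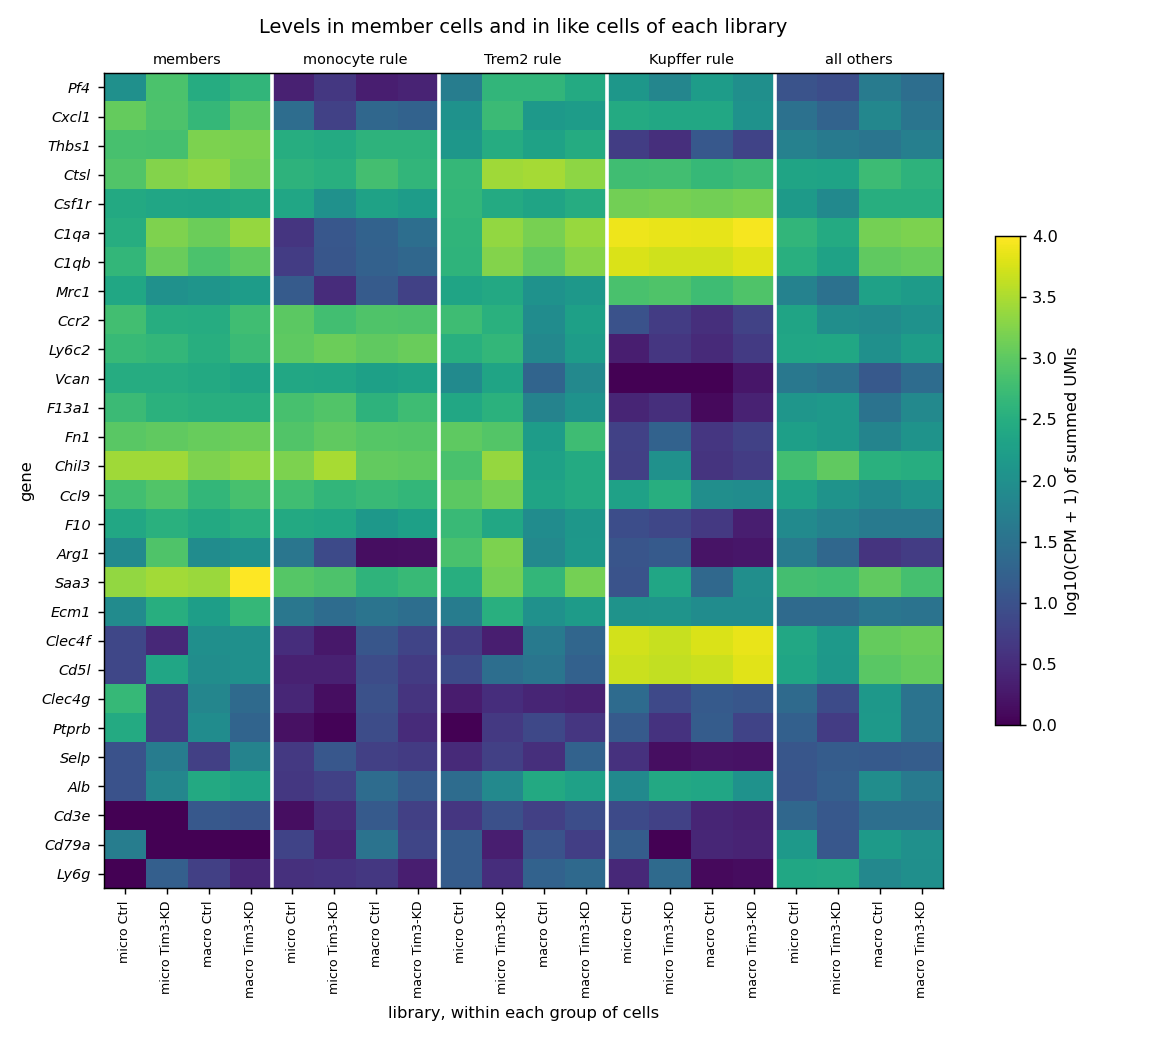
Level of 28 genes, as log10(CPM + 1) of summed UMIs (colour), in the members, in monocyte-rule, Trem2-rule and Kupffer-rule cells and in all other cells of the 4 lesion libraries. Members share Ccr2, Vcan, Fn1 and F10 with the monocyte-rule cells, and the Kupffer genes Clec4f and Cd5l are highest in the Kupffer-rule cells.

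Across the matrix, members were compared with the other cells of their library where at least 50 members were found, which held for both Tim3-KD libraries. In micrometastasis Tim3-KD 865 of 2612 genes with at least 100 UMIs were at least 2-fold higher in members (33.1%) and 427 at least 2-fold lower (16.3%), around a median log2 ratio of 0.63 over all genes. In macrometastasis Tim3-KD 311 of 2606 genes were at least 2-fold higher (11.9%) and 872 lower (33.5%), around a median of -0.23. Relative to a trimmed mean of the log2 ratios, 474 were higher and 639 lower in micrometastasis, and 504 higher and 710 lower in macrometastasis, so that higher genes made up 42.6% instead of 67.0% and 41.5% instead of 26.3% of those past 2-fold. Because expression chose the cells, all counts of members against other cells are a description, to be read against these shares of all genes.

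Chemokine genes were the group nearest to the choice. Of the CXC chemokines, 5 of 7 tested genes were at least 2-fold higher in micrometastasis and 3 of 8 in macrometastasis. Pf4 and Cxcl1 were among them at both sites, which the rule set. The higher genes outside the rule were Cxcl3, Cxcl9 and Cxcl16 in micrometastasis and Cxcl9 in macrometastasis. Of the CC chemokines, 8 of 10 and 4 of 9 were higher, and Ccl2 and Ccl7, which draw monocytes through CCR2, and Ccl6 and Ccl9 were among them at both sites. These counts are from the Tim3-KD libraries. The CC list summed to 2617, 5138, 2387 and 3365 CPM in members and to 2580, 1228, 2463 and 1941 CPM in other cells. Ctrl members thus stood near the other cells. Monocyte-rule cells held 2745, 1516, 3022 and 2084 CPM, Trem2-rule cells 8363, 9301, 2408 and 2977 CPM, and Kupffer-rule cells 5458, 5165, 3668 and 3446 CPM. Ccl9 stood at 623, 828, 443 and 678 CPM in members against 79.4 to 190 CPM in other cells. Ccl6 stood at 958, 2368, 1027 and 1252 CPM against 341 to 559 CPM. Ccl5, a chemokine of T and NK cells, was at least 2-fold lower at both sites.

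Genes of matrix and clotting were the second group. At least 2-fold higher were 6 of 8 in micrometastasis and 8 of 12 in macrometastasis, and F10, F13a1, Fn1, Vcan and Thbs1 were among them at both sites. Thbs1 was among the genes that chose the members, so its place there was set by the rule. Fn1, fibronectin, stood at 940, 1042, 1193 and 1252 CPM in members against 61.9 to 177 CPM in other cells. F10, coagulation factor X, stood at 251, 345, 273 and 330 CPM against 41.5 to 81.6 CPM. In the monocyte-rule cells Fn1 was at 827 to 1038 CPM and F10 at 137 to 271 CPM, close to the levels of the members. The summed list stood at 3149, 2815, 4228 and 4327 CPM in members, of which Thbs1 gave 695, 656, 1633 and 1554 CPM. It stood at 2450, 2646, 2339 and 2504 CPM in monocyte-rule cells and at 435 to 629 CPM in other cells.

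The monocyte list was higher in 5 of 6 genes in micrometastasis and in 7 of 7 in macrometastasis, the macrophage list in 9 of 9 and 2 of 10. Proteases and their inhibitors were higher in 7 of 10 and 5 of 10, with Ctsl, Ctss, Mmp14 and Mmp19 at both sites, and Mmp9, a gelatinase of neutrophils, lower at both. Of cytokines and growth factors, 5 of 13 were higher in micrometastasis, near the 33.1% of all genes, and in macrometastasis 4 of 14 were higher and 5 lower (Areg, Csf1, Gdf15, Igf1 and Il1rn), with Il1a, Il6, Il10 and Vegfa higher at both sites. Il1a, the alarmin interleukin 1 alpha, stood at 127, 120, 126 and 153 CPM in members, above 8.94 to 57.7 CPM in other cells and 2.95 to 10.3 CPM in monocyte-rule cells in each library. Il1b, which the micrometastasis matrix alone holds, stood at 3352 CPM in Ctrl members but 1380 CPM in those of Tim3-KD. Monocyte-rule cells also had it less often in Tim3-KD, with a UMI in 80.55% of cells in Ctrl and 47.0% in Tim3-KD.

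Immediate early and stress genes, which tissue dissociation also induces, were higher in 12 of 18 and 4 of 15 genes, lower in 1 and 2, and summed to 8039, 6462, 4232 and 6251 CPM. Other cells held 4008, 2339, 5489 and 3743 CPM, monocyte-rule cells 5894, 3656, 5768 and 4405 CPM, Trem2-rule cells 5978, 5408, 3014 and 3651 CPM, and Kupffer-rule cells 13230, 15650, 13600 and 7701 CPM. Members were thus below Kupffer-rule cells in each library, and below other cells in macrometastasis Ctrl. The part of dissociation was not tested. In micrometastasis, where 33.1% of all genes were higher and 16.3% lower, 6 of 10 lipid and iron genes were higher and 1 lower, 9 of 15 scavenger and pattern receptors were higher and 1 lower, 5 of 9 hypoxia and glycolysis genes were higher and 1 lower, and 4 of 6 inflammatory enzymes were higher and 0 lower. In macrometastasis, where 11.9% were higher and 33.5% lower, the counts of higher and lower genes were 1 and 3 of 8 for lipid and iron, 5 and 6 of 16 for scavenger and pattern receptors, 2 and 1 of 9 for hypoxia and glycolysis, and 3 and 3 of 7 for inflammatory enzymes. Interferon genes were higher in 4 of 13 and lower in 1 in micrometastasis, and in macrometastasis 2 of 14 were higher and 7 lower. MHC class II genes were higher in 3 of 7 in micrometastasis, and in macrometastasis 0 of 6 were higher and 1 lower. Of the proliferation genes, 8 of 9 were lower in micrometastasis Tim3-KD and 9 of 9 in macrometastasis Tim3-KD, and 7 of 9 over both macrometastasis libraries. They summed to 160, 625, 450 and 123 CPM in members against 1181, 1906, 530 and 1165 CPM in other cells. Monocyte-rule cells stood at 921, 2706, 228 and 2128 CPM, Trem2-rule cells at 211, 372, 644 and 586 CPM, and Kupffer-rule cells at 194.5, 258, 136 and 182 CPM. Mki67 stood at 3.02, 81.0, 34.9 and 0 CPM in members. The T cell list was lower in 7 of 7 genes at both sites.

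Ranked over both micrometastasis libraries together, the highest ratios of members over other cells were 57.0 for Pf4 (50.8 to 63.7), 39.0 for Cxcl1 (36.0 to 42.2), 33.1 for Ltc4s (27.0 to 40.4) and 22.7 for Ccl8 (14.5 to 34.4). Ltc4s, leukotriene C4 synthase, came almost wholly from the Tim3-KD members, at 228 CPM there against 6.04 CPM in Ctrl, and so did Ccl8, with 0 of its 26 UMIs in Ctrl. Arg1, arginase 1, was 16.4-fold higher (14.8 to 18.1) and Thbs1 14.1-fold (12.95 to 15.4). Of the 15 genes of highest ratio, Bmp2, Gpihbp1, Aqp1, Clec4g, Adgrf5 and Col4a1, known from endothelium, had 12.7- to 15.7-fold ratios, and in Ctrl, where their levels were 54.4 to 484 CPM, 6 of 39 members held 3 or more endothelial genes. The first 3 cells gave 64.4 to 77.8% of their Ctrl UMIs. Cavin2 (21.1), Timp3 (20.7) and Ly6a (16.6) completed the list. The lowest ratios were those of the granulocyte genes Ctsg (0.0109), Ltf (0.0109) and Mcpt8 (0 of 7283 UMIs), of the cytotoxic gene Gzma (0.00858) and of Septin1 (0 of 6534 UMIs).

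Over both macrometastasis libraries the highest ratio was that of Prg4, lubricin, at 65.0 (46.0 to 91.3), which rested on few cells, 3 cells giving 100% of its UMIs in Ctrl and 55.8% in Tim3-KD. It was followed by Thbs1 at 34.8 (32.9 to 36.9), Arg1 at 25.9 (20.5 to 32.4), Cxcl1 at 15.8 (14.6 to 17.0), Fn1 at 13.4 (12.6 to 14.2), Vcan, a monocyte proteoglycan, at 12.0 (10.5 to 13.7), Pf4 at 10.8 (9.66 to 12.0), and the metallothionein Mt2 at 10.7 (9.68 to 11.9). Saa3, an acute-phase serum amyloid A that macrophages make, was 10.3-fold higher (10.05 to 10.5), Ecm1 10.1-fold, Ltc4s 9.69-fold, Dpep2 9.40-fold, Il6 8.72-fold, the macrophage elastase Mmp12 8.50-fold and Apoc2 7.66-fold. Prg4, Mmp12, Il6 and Arg1 were found in few members: in the 36 Ctrl and 50 Tim3-KD members, Mmp12 had a UMI in 2 and 4 cells, Il6 in 4 and 6 and Arg1 in 4 and 8. Fn1 (24 and 35 cells), Dpep2 (26 and 29) and Apoc2 (24 and 40) were widespread. Camp (0.00156), Ctsg (0.0018), Ltf (0.00247), Gzma (0 of 19369 UMIs) and Cd79a (0 of 12944 UMIs) were lowest.

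The comparison of Tim3-KD with Ctrl did not enter the choice of members, although levels of the genes of the rule did, so their ratios are a description. In macrometastasis 35 of 205 genes with at least 100 UMIs were at least 2-fold higher in Tim3-KD members (17.1%) and 5 at least 2-fold lower (2.44%), around a median log2 ratio of 0.35. The 36 Ctrl members are fewer than the 50 asked for in the other comparisons, which limits what single genes can show. Relative to a trimmed mean, 17 were higher and 14 lower, so that higher genes made up 54.8% instead of 87.5% of those past 2-fold. Saa3, C4b, C4a, Cfb and Apoc1 were among the higher genes, and H2-Aa, H2-Ea and H2-Eb1 among the lower.

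Saa3 had the most UMIs of these genes. It stood at 2527 CPM (2379 to 2682) in the Ctrl members and 12850 CPM (12570 to 13140) in the Tim3-KD members, a ratio of 5.09 (4.77 to 5.43), and had a UMI in 44.4 and 64.0% of members. The other cells ran the other way, at 1069 and 664 CPM, and monocyte-rule cells stood at 405 and 495 CPM. The level sat in few members: 3 cells gave 84.8% of the UMIs in Ctrl and 59.7% in Tim3-KD. The single Ctrl member with 2 or more of Icam2, Selp and Prg4 had 53500 CPM of Saa3 against 662 in the other members, and the 6 such Tim3-KD members 46720 against 2784 CPM. Without these cells the ratio was 4.21 (3.69 to 4.81), and without members of a doublet score above 0.15 it was 14.4 (12.5 to 16.8).

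The complement genes C4b and C4a, near-identical paralogs whose reads may be split between them, stood at 102.5 against 561 CPM and 69.9 against 354 CPM in Ctrl and Tim3-KD, ratios of 5.47 (3.99 to 7.67) and 5.06 (3.44 to 7.69). Without the Icam2, Selp and Prg4 members the ratios were 2.09 (1.06 to 4.36) and 2.31 (1.03 to 5.68), and without members of high doublet score 19.2 and 11.2. Cfb, complement factor B, was 3.47-fold higher (2.13 to 5.93), and 1.75-fold at a cut of 2.5. Apoc1, an apolipoprotein of macrophages and hepatocytes, had a ratio of 6.77 (4.55 to 10.5; 62.9 and 426 CPM), and of 4.29 without the Icam2, Selp and Prg4 members, and 3 cells gave 74.1% of its UMIs in Ctrl and 71.1% in Tim3-KD. Other cells held 420 and 551 CPM of Apoc1. G0s2, an inhibitor of fat hydrolysis, had a ratio of 4.30 (2.59 to 7.52), with 3 Ctrl cells holding 100% of its Ctrl UMIs, and of 1.48 at a cut of 2.5, and other cells held 392 and 970 CPM. The stress-response gene Nupr1 and the cytokine Osm were 3.48-fold (2.29 to 5.48) and 3.40-fold (2.08 to 5.81) higher.

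Of the MHC class II list, whose genes serve to present peptides to CD4+ T cells, 2 of 3 tested genes were at least 2-fold lower in Tim3-KD members (H2-Aa and H2-Eb1), and so was H2-Ea, which is outside the list. H2-Ab1, the third, had a ratio of 0.715 (0.606 to 0.845). H2-Aa stood at 1442 against 656 CPM (0.455, 0.4 to 0.518), H2-Eb1 at 601 against 244 CPM (0.406, 0.329 to 0.4997) and H2-Ea at 1216 against 468 CPM (0.385, 0.332 to 0.446), and the ratios were 0.325, 0.206 and 0.25 without the members with 3 or more endothelial genes. The lower level was not particular to the members, but it was not found in each group of like cells. The whole list summed in micrometastasis to 6069 CPM in Ctrl members and 1179 CPM in Tim3-KD members, to 1789 and 265 in monocyte-rule cells and to 3355 and 717 in other cells, and in macrometastasis to 2795 and 1513, 2685 and 1022, and 4554 and 2264 CPM. Trem2-rule cells held 11030 and 4380 CPM in micrometastasis but 5051 and 6559 CPM in macrometastasis. Kupffer-rule cells held 6208 and 6154 CPM in micrometastasis and 9333 and 5063 CPM in macrometastasis. In members 3 cells gave 44.9 to 70.3% of the UMIs of H2-Aa, H2-Ea and H2-Eb1 in each library. Arrdc4, a glucose-induced arrestin, was also lower (0.366, 0.242 to 0.545), as was Pid1 (0.455, 0.308 to 0.668). Short of 2-fold were the siderophore-binding Lcn2 (0.5003, 0.402 to 0.622), the signalling gene Malt1 (0.518, 0.350 to 0.761) and the nuclear lamin gene Lmna (0.548, 0.395 to 0.758). Malt1 reached 0.277 at a cut of 2.5, where H2-Ea was at 0.242 and H2-Eb1 at 0.246.

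Of the genes of the rule, with no test and only as a description of the chosen cells, Cxcl1 had a Tim3-KD over Ctrl ratio of 2.15 in macrometastasis, Thbs1 one of 0.951 that moved to 1.86 at a cut of 2.5, and Pf4 one of 1.43 that turned to 0.392 without members of a doublet score above 0.15. Ctsl, outside the rule, had a ratio of 0.652 (0.594 to 0.717). The listed groups are to be read against the 17.1% of all tested genes that were at least 2-fold higher. Interferon genes Isg15 (2.17, 1.39 to 3.49) and Irf7 (3.08, 2.07 to 4.71), the only 2 of 15 listed with enough UMIs, were both higher. Ccl2 (2.32, 1.78 to 3.06) and Ccl3 (2.39, 1.73 to 3.34) were the 2 of 6 tested CC chemokines at least 2-fold higher, Fos (2.31, 2.01 to 2.65) was 1 of 11 immediate early genes, and Ccr2 (2.05, 1.67 to 2.54) was 1 of 7 monocyte genes. None of the 7 tested macrophage genes reached 2-fold, with C1qa at 1.82 (1.65 to 2.02). Fn1 (1.05), F13a1 (1.00) and Vcan (0.824, 0.636 to 1.07) were within counting error of no difference.

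For micrometastasis a count over all genes was set to be made only with 50 members in both libraries, a limit not set for macrometastasis. Its Ctrl library had 39, and the values of its members are given side by side with those of Tim3-KD. Arg1 stood at 81.6 CPM in the Ctrl members and 782 CPM in the Tim3-KD members (9.58, 6.48 to 14.7) and had a UMI in 7.69 and 44.4% of members, or 2.56 and 38.9% after each cell was thinned to 1500 UMIs. Monocyte-rule cells held 36.2 and 7.06 CPM of Arg1. In Ctrl 3 members gave 100% of its UMIs and in Tim3-KD 3 gave 40.0%. Ctsl was 2.22-fold higher (1.93 to 2.54), C1qa 5.48-fold (4.46 to 6.79), C1qb 2.82-fold (2.35 to 3.40), the efferocytosis receptor Mertk 4.30-fold (2.49 to 7.96), Ccl2 2.84-fold (2.19 to 3.73) and Ccl6 2.47-fold (2.18 to 2.81). Ltc4s had 118 UMIs in Tim3-KD against 2 in Ctrl (37.7, 10.2 to 315), and Ly6a 105 against 6 (11.2, 4.97 to 31.1). Of the genes of the rule, as a description of the chosen cells, Pf4 had a ratio of 7.43 (with capped Tim3-KD cells at their lower bound), Cxcl1 of 0.671 and Thbs1 of 0.944. The genes outside the rule named above were higher in the library where more members held C1q genes, and the part of that makeup was not tested.

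Lower in micrometastasis Tim3-KD members were Il1b (0.412, 0.374 to 0.453), Ccr2 (0.505, 0.409 to 0.623) and Clec4g, an endothelial lectin (2 UMIs against 160 in Ctrl). The fall of Il1b was not particular to members. It had a UMI in 79.5 and 68.5% of Ctrl and Tim3-KD members and in 80.55 and 47.0% of monocyte-rule cells. The cytokine list that holds Il1b summed to 1495 and 450 CPM in monocyte-rule cells and 1987 and 851 CPM in other cells, but to 2029 and 2113 CPM in Kupffer-rule cells. H2-Aa (0.139, 0.116 to 0.166), H2-Ea (0.141, 0.116 to 0.171) and H2-Eb1 (0.162, 0.132 to 0.197) were lower as well in summed UMIs. Detection of H2-Aa among members did not fall, at 28.2% for the Ctrl library and 33.3% for the Tim3-KD library. The median member held 218 CPM of the MHC class II list in the Ctrl library and 310 CPM in the Tim3-KD library. The highest member held 37370 and 7399 CPM. The lower sums thus do not show a shift of the whole class. Fn1 (1.11, 0.962 to 1.28), Vcan (1.01, 0.777 to 1.31) and Chil3 (1.01, 0.926 to 1.10), matrix and monocyte genes, did not differ beyond counting error.

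Levels were also set out by the monocyte and C1q groups of cells, which were drawn after the values were seen and are given with no test. A member low in one of Pf4, Cxcl1 and Thbs1 had to be high in another, so opposite runs of these genes are in part set by the rule. In macrometastasis Thbs1 was at 905 CPM in Tim3-KD and 576 CPM in Ctrl members with C1q genes, against 1973 and 2271 CPM in the others. In micrometastasis Thbs1 was at 501 against 778 CPM in Tim3-KD and 90.3 against 789 CPM in Ctrl. Pf4 was at 226, 861, 625 and 995 CPM with C1q genes against 80.3, 647, 97.1 and 55.4 CPM without. Ctsl was at 835, 3009, 3769 and 2556 CPM with C1q genes against 824, 902, 1214 and 684 CPM without, and Arg1 at 587, 1524, 210 and 253 CPM against 3.49, 200, 11.2 and 5.54 CPM. Members with C1q genes, which numbered 4, 22, 10 and 14 cells, thus held the higher level of Arg1 in each library. Saa3 was at 5126, 5743 and 30300 CPM with C1q genes against 991, 586 and 1579 CPM without in micrometastasis Tim3-KD and the macrometastasis libraries, and at 1152 against 2456 CPM in micrometastasis Ctrl. Ccr2 was at 248, 74.7, 24.8 and 42.9 CPM with C1q genes and at 680, 502, 456 and 964 CPM without.

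Members were also set out by the gene of highest score, as a description. In macrometastasis Tim3-KD the 34 members led by Thbs1 had 850 CPM of Ccr2, 2331 of Chil3 and 1151 of C1qa, and the 11 led by Cxcl1 had 76.0 of Ccr2, 270 of Chil3 and 5253 of C1qa. In micrometastasis Tim3-KD the 18 members led by Pf4 had 14.9 CPM of Ccr2, 49.8 of F13a1 and 1906 of C1qa, and the 27 led by Cxcl1 had 362 of Ccr2, 459 of F13a1, 2073 of C1qa and 1117 of Arg1. In micrometastasis Ctrl the 24 members led by Cxcl1 had 568 CPM of Ccr2, 417 of F13a1, 178 of C1qa and 3855 of Il1b. In macrometastasis Ctrl the 23 members led by Thbs1 had 429 CPM of Ccr2 and 461 of C1qa. Among members led by Cxcl1, Ccr2 had a UMI in 62.5% of those of micrometastasis Ctrl, 55.6% of micrometastasis Tim3-KD and 9.1% of macrometastasis Tim3-KD, and C1qa in 16.7, 44.4 and 45.5%, so the members led by Cxcl1 were not alike in the 3 libraries. The 6 endothelial-gene members of micrometastasis Ctrl had 5293 CPM of Clec4g, 3010 of Ptprb, 1158 of Cxcl1, and no UMI of Thbs1 or Ccr2.

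Macrometastasis was compared with micrometastasis in the Tim3-KD members, where site and day cannot be told apart. Of 200 genes in both matrices with at least 100 UMIs, 16 were at least 2-fold higher in macrometastasis (8.0%) and 19 lower (9.5%), around a median log2 ratio of 0.08. Higher were Apoc1 (12.3, 7.60 to 21.03), the metallothioneins Mt2 (7.38, 5.29 to 10.6) and Mt1 (4.11, 3.70 to 4.59), Saa3 (4.58, 4.33 to 4.85), C4a (3.11), Alb (3.07, 2.09 to 4.60), the signalling regulator Rgs1 (2.61, 2.19 to 3.13) and C4b (2.53). In the Ctrl members the ratio of Saa3 was 1.11 (1.01 to 1.22). Ratios of Pf4, Cxcl1 and Thbs1 between the sites are not given, since separately scaled scores of these genes chose the members.

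Lower in macrometastasis were Ctla2a (0.024, with 99.1% of the micrometastasis UMIs in 3 cells), Ly6a (0.108, 0.0557 to 0.193), Arg1 (0.131, 0.0987 to 0.172), the histone gene H2bc4 (0.318, 0.219 to 0.454), the heme enzyme Blvrb (0.336, 0.245 to 0.457), Mertk (0.346), Rasgef1b (0.371) and the galectin gene Lgals1 (0.376). Arg1 stood at 782 CPM in micrometastasis and 103 CPM in macrometastasis, with a UMI in 44.4 and 16.0% of members.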

How the data were processed

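CD45+ liver cells were sequenced with 10x 3' v3.1 chemistry. Per the submitters' notes and methods, reads were trimmed with Trim Galore 0.4.3 and mapped with STAR 2.7.7a to GRCm38 (Ensembl annotation), UMIs over exons and introns were counted, and cells with over 1000 UMIs and genes, under 500000 UMIs and under 20% mitochondrial reads were kept, with doublets removed. The values deposited by the authors are scores: normalised log values of variable genes (2669 in micrometastasis, 2643 in macrometastasis), scaled per gene and site and capped at 10. The values fit a regression on total UMIs, which no source used here describes. The scores were inverted to UMIs, which came within 0.05 of a whole number for at least 99.9972% of values (0.144 to 0.16% were capped and are lower bounds), so UMIs and totals are estimates; the inversion was tested on simulated data. UMIs were summed over cells and given as CPM of all UMIs of those cells. Ratios have exact conditional binomial intervals, with 0.5 added to each sum for ranking. Named genes were those of the rule and Ctsl, the 15 highest and 5 lowest ratios of members over others per site, and the 8 highest and 8 lowest of Tim3-KD over Ctrl (macrometastasis) and of macrometastasis over micrometastasis (Tim3-KD), with mitochondrial, ribosomal, haemoglobin and receptor genes left out, and other genes come from the lists. The members and lists were chosen with earlier results of these data known. Doublets were scored again by simulating doublets, per library. Python 3.11.15, numpy 2.4.6, scipy 1.17.1, pandas 2.3.3, scanpy 1.11.5 and matplotlib 3.10.9 were used. Other cuts, minimum UMIs, scalings and left-out cells were tried, some chosen after seeing the data (members without endothelial genes, or without Icam2, Selp and Prg4).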

Additional observations from a re-analysis of the deposited data

Results flagged for a closer look

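For 5 of the 13 named genes with ratios at both sites, the Tim3-KD over Ctrl ratio lay on opposite sides of 1 in macrometastasis and micrometastasis members, which is what flagged them, and the difference between the sites was not tested. The ratio was 4.30 in macrometastasis and 0.308 in micrometastasis for G0s2, 2.15 and 0.671 for Cxcl1, 0.652 and 2.22 for Ctsl, 0.518 and 1.80 for Malt1, and 0.548 and 2.04 for Lmna. Cxcl1 was among the genes that chose the members, so its ratios are a description. Micrometastasis Ctrl had 39 members and macrometastasis Ctrl 36.

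Adjacent tissue was outside the choice of members. On its own scaled scores the same rule found 27 of 1803 cells in Ctrl (1.5%) and 5 of 542 in Tim3-KD (0.923%), and the separate scaling of that site keeps these shares from being set against those of the lesions.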

How the results depend on the processing

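No paired analysis was possible because the labels number no replicates within the 1 library of each group, and so no replicate could be left out; an additive fit of hairpin and site, which would take the difference between sites as error, was not made. In the usual order of libraries (micrometastasis Ctrl and Tim3-KD, macrometastasis Ctrl and Tim3-KD), the share of members moved to 1.74, 1.81, 1.45 and 2.51% at a cut of 1.5, to 0.352, 0.661, 0.326 and 0.4% at a cut of 2.5, to 1.1, 1.75, 1.1 and 1.22% without the Trem2 condition, to 1.31, 1.48, 1.79 and 1.27% without the Clec4f and Vsig4 condition, and to 0.0392, 0.175, 0.183 and 0.2% when a UMI of each of the 3 genes was asked for. The macrometastasis difference in share became 1.06 points at a cut of 1.5 and turned to -0.519 without the Clec4f and Vsig4 condition, and the other 16 alternative values of the 2 differences stayed within their intervals. Against other cells, relative to the trimmed mean 474 genes were higher in micrometastasis Tim3-KD and 504 in macrometastasis Tim3-KD members, and against monocyte-rule, Trem2-rule and Kupffer-rule cells 225 were higher and 228 lower in micrometastasis and 540 lower in macrometastasis. For macrometastasis Tim3-KD over Ctrl, higher and lower counts were 17 and 14 relative to the trimmed mean, 85 and 42 at a minimum of 30 UMIs, 15 and 3 at 300, and 16 and 8 in members without Alb, and 8 were lower without endothelial-gene members. For macrometastasis over micrometastasis, 62 and 64 were higher and lower at 30 UMIs, 7 and 2 at 300, 10 and 31 without Icam2, Selp and Prg4 members, 10 were higher by the mean over cells, 8 higher without Alb, and 10 lower at a cut of 2.5. Of the 35 higher genes of the first comparison 30 were shared without endothelial-gene members, 19 without Icam2, Selp and Prg4 members, 18 at low doublet score, 16 at a cut of 2.5 and 10 without Alb. Named-gene ratios stayed in 79 alternatives, moved in 42, fell short of 2-fold in 12 and newly passed it in 7. The causes were not tested. Depth limits genes of few UMIs.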

Other observations

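Further genes outside the comparisons above ranged from few members to nearly all. Cxcl13, a chemokine that draws B cells, had no UMI in micrometastasis members and stood at 261 CPM in macrometastasis Ctrl and 167 CPM in macrometastasis Tim3-KD members, where 3 cells gave 100% and 97.0% of its UMIs. Timd4, a receptor of resident macrophages for dying cells, was at 90.9 CPM in macrometastasis Tim3-KD members and in 8 of 50 of them, against 6.04 to 19.3 CPM in the other lesion libraries. Cd14, a receptor for bacterial lipopolysaccharide, was spread over nearly all members, at 84.6, 90.7, 91.7 and 98.0% with a UMI in micrometastasis Ctrl, micrometastasis Tim3-KD, macrometastasis Ctrl and macrometastasis Tim3-KD. These genes were chosen after their values were seen.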
